A study of Mus musculus with 16 samples.

Results

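Bulk RNA sequencing of hamstring muscle was used to compare the HRS-injected leg of 5 mice with the legs of 2 mice that had received PBS only. HRS is recombinant histidyl-tRNA synthetase, the Jo-1 autoantigen, and the mice are a model of antisynthetase myositis. The comparison holds 9 of the 16 libraries of the series, namely the left legs of mice m862 to m866 and the left and right legs of mice m867 and m868. These libraries were taken by their sample labels. All mice were female, of the C57BL/6 genotype and 8 to 10 weeks old, and muscle was taken 14 days after injection. The labels give a total of 100 μL of HRS at 3 to 5 mg/mL, with 50 μL to each side, for the treated mice. Library titles instead place HRS in the left leg and PBS in the right leg of m862 to m866, and the titles were followed because they alone separate the legs. The other libraries were those 5 right legs and 2 mice that had received a fusion protein of HRS and MBP at 2 to 3 mg/mL. No group that had received an unrelated protein was used here, so the response to HRS cannot be told apart from the response to any injected protein. Each value came from whole muscle, in which fewer cells of a type and less RNA per cell cannot be told apart.

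Antisynthetase myositis is an inflammatory muscle disease in which T cells, macrophages and antibodies to tRNA synthetases are found. Interferon-γ, made by T cells and NK cells, acts on GAS elements and induces IRF1, and IRF1 and the factors activated by type I interferon act on ISRE elements. Their targets include chemokines, guanylate-binding proteins and the immunity-related GTPases that defend cells from within, and the genes of MHC class I and II. Injured muscle is cleared by macrophages and rebuilt by satellite cells, which pass through embryonic myosins and fetal acetylcholine receptor subunits while fibroblasts lay down matrix.

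Each HRS library held between 37300000 and 73900000 reads, as implied by its lowest values, and each PBS-only library between 8600000 and 40700000 reads, with the right leg of m868 the shallowest. Mitochondrially encoded genes took 3.41% to 6.29% of the normalized counts in the HRS legs of m862 to m865, 11.1% in that of m866 and 11.3% to 13.1% in PBS-only legs. The HRS leg of m866 stood apart from the other HRS legs. On the first principal component of the 9 libraries, which held 82.2% of the variance, it scored -15.71, against 56.71 to 113.3 for the other HRS legs and -89.95 to -67.91 for PBS-only legs. For lists in which m866 changed the count most, the count without it is also given. The PBS-only group consisted of 2 mice, and their legs were averaged per mouse before testing, so that the comparison had 5 against 2 animals. An exact two-sided permutation test over such groups has 21 arrangements and cannot go below p = 0.0952, so calls rest on limma (Benjamini-Hochberg over 16414 genes, adjusted p below 0.05 and an absolute log2 fold change above 1). Fold changes are on the scale log2(normalized count + 0.5), which understates changes of low genes. Without either PBS-only mouse, 0 genes were called by limma in either direction, while 3845 genes without m867 and 3532 without m868 had an unadjusted p below 0.05. Calls of the test with all 5 HRS legs therefore rest on having both PBS-only mice.

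In HRS legs 2279 genes were called higher, which is 13.9% of those tested, and 202 were called lower, which is 1.23%. Of the falls 88 were in protein-coding genes and 78 in processed pseudogenes, whose reads may be shared with their parent genes, against 2073 and 53 of the rises. Rises thus made up 91.9% of calls, or 65.6% after quantile normalization. The median log2 fold change over all tested genes was 0.147. An unadjusted p below 0.05 was reached by 7620 genes in both directions together, and by 11000 without m866. limma-voom, which here and below took the 4 PBS-only legs as separate libraries, called 3159 genes higher and 1253 (7.63%) lower. List counts by these 2 measures are to be read beside those numbers. All 5 HRS legs lay above all 4 PBS-only legs for 26.6% of genes (4365) and below them for 5.18% (851). Without the HRS leg of m866, 3557 genes (21.7%) were called higher and 1516 (9.24%) lower. Those included 2278 of the 2279 rises and 198 of the 202 falls called with all 5 mice. Without m862, m863 or m865 the rises numbered 512, 482 and 696, and the falls 42, 27 and 29. The lists lost calls to different extents in these 3 fits. The counts were 17, 21 and 19 of 22 for type I interferon genes and 9, 10 and 12 of 18 for macrophage genes, but 3, 5 and 15 of 26 for interferon-γ, 2, 4 and 12 of 18 for MHC class I, 0, 0 and 5 of 11 for MHC class II and 1, 1 and 4 of 23 for T cell genes. Of 155 genes examined one by one, 106 were called with all 5 legs, and of these 53 lost their call without m862, 53 without m863, 39 without m865 and 13 without m864. *Retnla*, *Scd1*, *Cd3e*, *Cd8a*, *Cxcr3*, *Gbp2*, *Timp1*, *Myl4*, *Runx1*, *Sln* and *Junb* lost it in each of the fits without m862, m863 and m865, and *Cd4*, *Cd69*, *Igtp*, *Irf1*, *H2-K1*, *H2-Aa* and *Nr4a2* in those without m862 and m863.

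**Figure D1:**
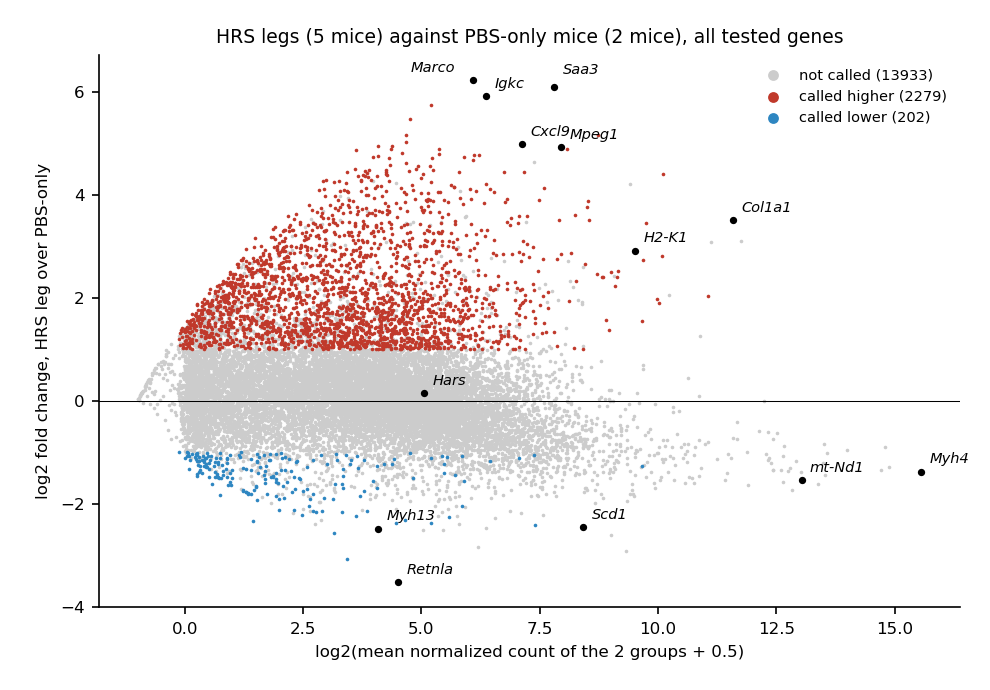
Each point is 1 of 16414 genes, with the log2 of its mean normalized count on the x axis and its log2 fold change between HRS legs and PBS-only mice on the y axis. The 2279 genes called higher reach a log2 fold change of 6.22 (*Marco*), whereas the highly expressed muscle genes *Myh4* and *mt-Nd1* lie below 0 without being called.

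The largest rises were in genes of activated macrophages, the acute phase and immunoglobulin constant regions. *Marco*, a scavenger receptor gene of macrophages (chr1:120474538-120505024), stood at 131, 158, 280, 37.9 and 68.7 normalized counts in the HRS legs of m862 to m866. In the PBS-only legs it stood at 0.398 and 0.970 in m867 and at 2.18 and 0.782 in m868. No HRS leg came near the PBS-only legs, and the log2 fold change was 6.22 ± 0.70 (SE; limma adjusted p = 0.0137). *Saa3*, an acute-phase protein gene, ranged from 87.6 in m866 to 1220 in m864 against 1.99 to 7.28 (log2 fold change 6.10 ± 0.92). *Acod1*, which makes the macrophage metabolite itaconate, stood at 34.8 to 164 against 0.398 to 1.33 (5.75 ± 0.53). The light chain gene *Igkc* stood at 69.1 to 328 against 1.05 to 2.59 (5.92 ± 0.51), and the heavy chain genes *Ighg2b* and *Ighg3* rose by 5.48 and 4.96. The 12 largest rises by the naming rule also held *Serpina3g*, a serpin gene (5.16), the C-type lectin receptor genes *Clec4e* (5.02) and *Clec4d* (4.95), the chemokine gene *Cxcl9* (4.98), *Mpeg1*, which encodes perforin-2 of phagocytes (4.93), and the Fc receptor gene *Fcgr4* (4.90). In all 12 the 5 HRS legs lay above the 4 PBS-only legs.

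Among the largest falls was *Retnla*, a marker of alternatively activated macrophages, which stood at 2.73, 3.33, 0.482 and 2.69 in m862 to m865 and at 9.19 in m866. Its PBS-only legs stood at 43.7 and 16.1 in m867 and 58.8 and 45.4 in m868, so the groups did not overlap (log2 fold change -3.52 ± 0.76, adjusted p = 0.0256 by limma). The remaining 11 of the 12 largest falls, among called genes whose groups did not overlap, ranged from -3.08 (*Fgfbp1*, an FGF-binding protein) to -2.15 (*Gdap1*, a mitochondrial membrane protein gene). They included *Scd1*, the stearoyl-CoA desaturase of lipid synthesis (-2.46), *Casr*, the calcium-sensing receptor (-2.56), the chloride channel family member *Best3* (-2.37), the phospholipase *Pla2g5* (-2.33), the kinase *Wnk2* (-2.42) and the cadherin *Cdh4* (-2.24). The others were *Myh13* (-2.49) and *Myh6* (-2.26), of the myosin heavy chain family, and *Aldoart2*, an aldolase-like gene (-2.31). *Myh13* lies in a cluster of near-identical myosin genes and *Aldoart2* resembles *Aldoa*, so how reads were shared among these copies is uncertain. Among PBS-only legs *Myh13*, *Aldoart2* and *Myh6* were all highest in the right leg of m868, the shallowest library (44.8, 75.1 and 152). Whether the reads of *Myh6* were shared too was not tested.

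Most interferon target genes were called higher, and most lay above the PBS-only legs in m866 too. Of 26 genes skewed to interferon-γ, 19 passed as higher and 0 as lower, and the list's median was 2.86 on the log2 scale (2.73 without m866). *Cxcl9*, the CXCR3 ligand induced by interferon-γ, stood at 240, 101, 734, 80.2 and 204 in m862 to m866 against 3.15 to 10.1 in PBS-only legs. *Cxcl10*, another ligand of this receptor, ranged from 24.9 to 164 against 0.625 to 3.28 (4.71 ± 0.73). *Ifng* itself was low, at 0.349 to 5.30 in HRS legs and 0 to 0.243 in PBS-only legs, and was not called (1.73 ± 0.65, adjusted p = 0.0843) although the groups did not overlap. *Ido1*, which degrades tryptophan, overlapped between the groups (0.231 to 3.33 against 0.0568 to 2.18).

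Of 22 genes skewed to type I interferon, 21 were called higher, with a median of 2.31 (2.30 without m866). *Isg15*, a ubiquitin-like modifier, stood at 19.2, 14.1, 29.9, 19.8 and 16.6 against 1.39 to 4.0 (2.71 ± 0.35). The antiviral genes *Mx1* and *Oas3* rose by 3.58 ± 0.39 and 3.82 ± 0.37. Averaged over the list, HRS legs lay between 4.14 and 4.97 on the log2 scale, with m866 at 4.39, against 1.67 to 2.7 in PBS-only legs. On the same scale the interferon-γ list of m866 lay at 6.25, above m862 (5.85), m863 (5.09) and m865 (4.65) and below m864 (6.90). PBS-only legs lay between 2.06 and 3.72.

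**Figure D2:**
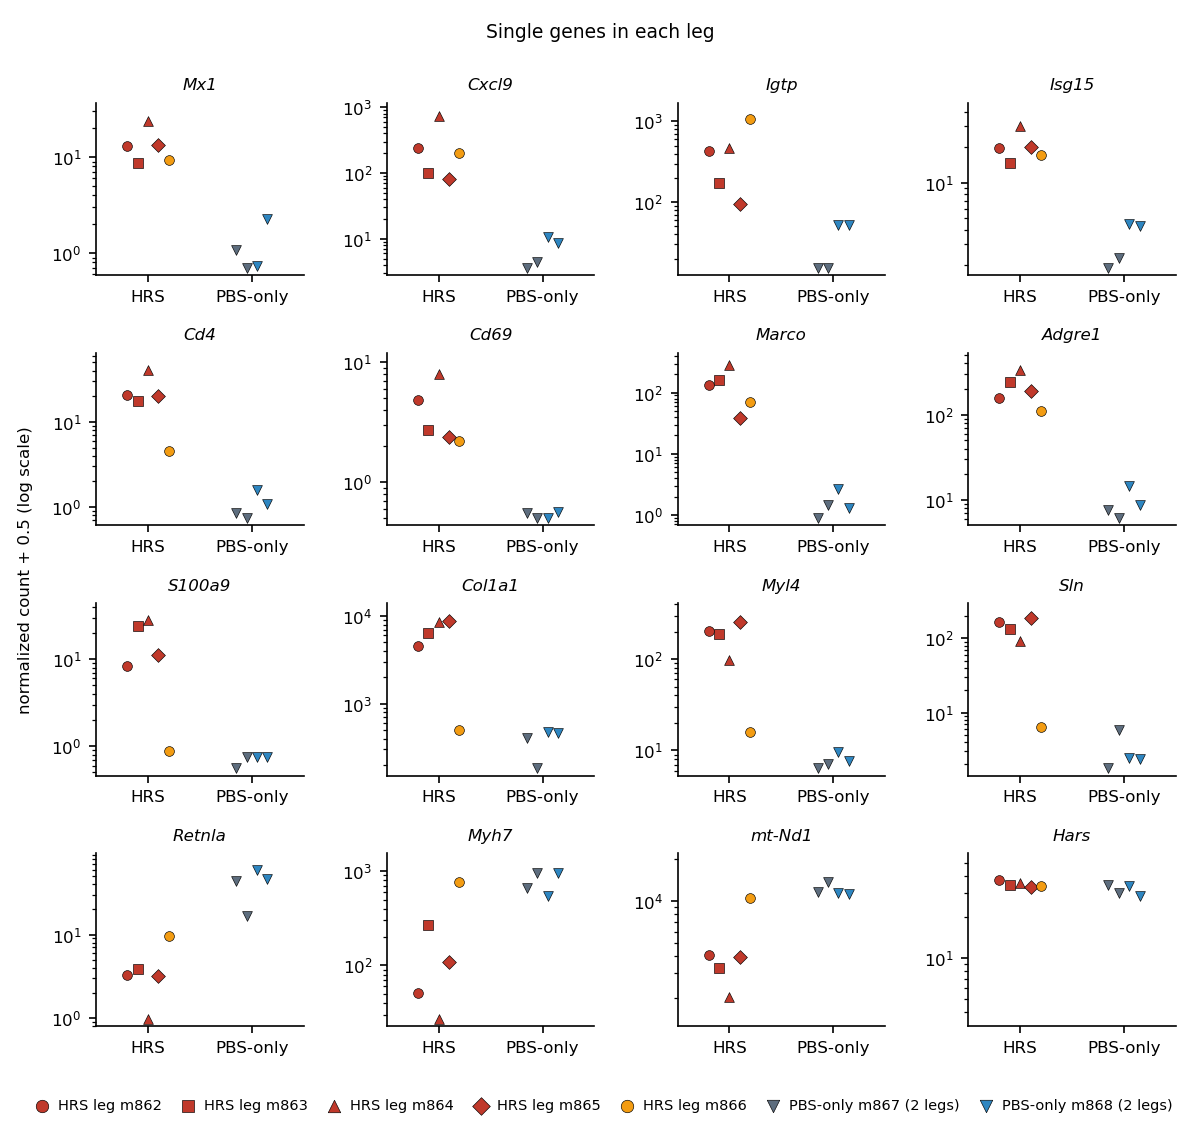
Normalized counts plus 0.5 (log axis) of 16 genes in each of the 5 HRS legs and 4 PBS-only legs, with 1 point per leg and the HRS leg of m866 in orange. That leg lies among the other HRS legs for *Cxcl9* and *Isg15* and highest for *Igtp*, but near the PBS-only legs for *S100a9*, *Col1a1*, *Myh7* and *mt-Nd1*.

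The promoters of these genes are shown because most members of the interferon lists were higher in all 5 HRS legs than in any PBS-only leg (21 of 26 interferon-γ and 21 of 22 type I genes). RefSeq transcription starts on GRCm38.p6 were matched by symbol for 11341 of the 16414 tested genes, and the 250 bases upstream of each start were searched on both strands for an ISRE, here TTTC and TTTC with any 2 bases between them, and a GAS (TTCNNNGAA, where N is any base). An ISRE was found for 3.44% of the matched genes and a GAS for 7.20%. Among the 14 matched members of the interferon-γ list, 11 had an ISRE and 8 a GAS, and 92.9% had at least 1 of them. Among 16 matched members of the type I list, 8 had an ISRE and 2 a GAS. Of the 1709 matched genes called higher, 6.96% had an ISRE and 9.54% a GAS. A match describes letters only and was not tested for binding. The last 110 bases upstream of the start follow for 8 members chosen for their matches after the search, 5′ to 3′ on the gene's strand, with the letters of each match in capitals (overlapping matches run together):
*Igtp* (chr11:58199446-58199555, + strand): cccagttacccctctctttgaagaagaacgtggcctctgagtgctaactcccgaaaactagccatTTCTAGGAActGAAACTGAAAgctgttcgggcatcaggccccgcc
*Irgm2* (chr11:58214867-58214976, + strand): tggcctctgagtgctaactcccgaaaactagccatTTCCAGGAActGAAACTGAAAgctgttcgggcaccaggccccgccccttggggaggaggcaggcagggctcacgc
*Tgtp2* (chr11:49064213-49064322, - strand): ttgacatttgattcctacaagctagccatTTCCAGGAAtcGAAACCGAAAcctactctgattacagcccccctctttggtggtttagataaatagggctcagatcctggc
*Gbp7* (chr3:142530226-142530335, + strand): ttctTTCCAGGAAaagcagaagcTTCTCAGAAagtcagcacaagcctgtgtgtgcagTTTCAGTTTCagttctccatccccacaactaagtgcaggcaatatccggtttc
*Gbp2* (chr3:142620553-142620662, + strand): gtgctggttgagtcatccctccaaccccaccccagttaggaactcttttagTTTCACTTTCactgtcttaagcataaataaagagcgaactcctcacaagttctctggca
*Irf1* (chr11:53769904-53770013, + strand): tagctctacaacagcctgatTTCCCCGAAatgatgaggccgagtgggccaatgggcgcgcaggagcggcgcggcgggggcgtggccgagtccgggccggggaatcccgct
*Isg15* (chr4:156200819-156200928, - strand): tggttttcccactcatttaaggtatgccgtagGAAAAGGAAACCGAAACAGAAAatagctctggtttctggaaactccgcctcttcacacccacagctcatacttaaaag
*Ifit1* (chr19:34640779-34640888, + strand): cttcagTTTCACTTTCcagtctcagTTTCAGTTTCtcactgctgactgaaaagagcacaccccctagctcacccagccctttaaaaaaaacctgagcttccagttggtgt

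In the immunity-related GTPase genes *Igtp*, *Irgm2*, *Tgtp1* and *Tgtp2* the GAS was followed by the ISRE with 2 bases between them, at a spacing of 11 bases from start to start. *Irgm1*, of the same family, had 2 ISRE matches and no GAS in this window. *Igtp* stood at 429, 171, 468, 93.6 and 1070 in the HRS legs of m862 to m866 and at 14.9 in both legs of m867 and 51.2 and 51.0 in m868. *Irgm2* stood at 441, 226, 437, 147 and 945 against 34.3 to 71.4. In both genes m866 was the highest of the HRS legs, by a margin of over 2-fold to the next. The deposited gene models of *Igtp* and *Irgm2* overlap on 1 strand, so their reads may not be separable, and *Tgtp1* and *Tgtp2* are near-identical copies. *Tgtp2* stood at 70.7 to 332 against 6.12 to 47.8 (log2 fold change 2.84 ± 0.79, adjusted p = 0.0438). The guanylate-binding protein genes *Gbp2* and *Gbp7* rose by 3.10 and 2.17, and *Irf1*, the transcription factor that binds ISRE elements, stood at 77.3 to 307 against 9.88 to 32.4 (2.88 ± 0.56). *Isg15* and *Ifit1*, with ISRE matches and no GAS, ranged over 14.1 to 29.9 and 21 to 38.7 in HRS legs, and *Gbp2*, also with no GAS in this window, over 97.7 to 546.

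**Figure D3:**
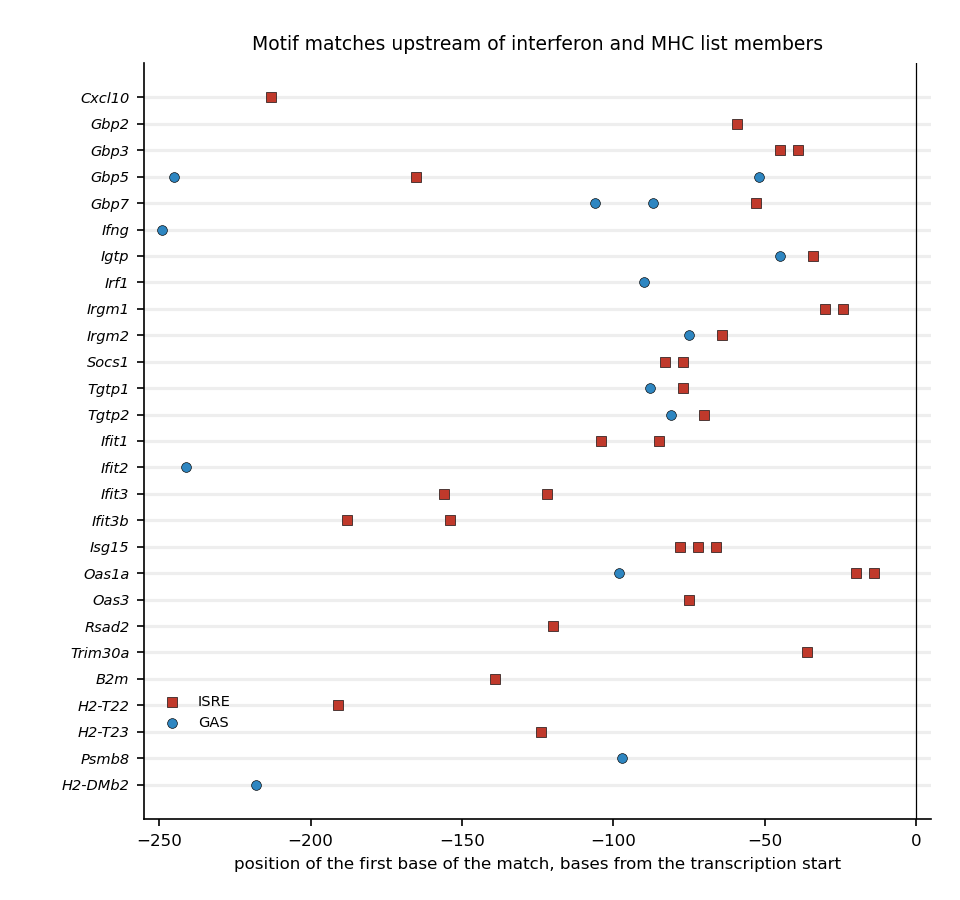
Position of ISRE and GAS matches, in bases from the transcription start, for 27 members of the interferon and MHC lists that had a match in the 250 bases upstream. A GAS lies just upstream of an ISRE in *Igtp*, *Irgm2*, *Tgtp1* and *Tgtp2*.

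Antigen presentation genes were called in large numbers. All 18 tested genes of MHC class I and peptide loading passed as higher, and their median was 2.61 on the log2 scale. *H2-K1* stood at 1300, 1080, 2670, 826 and 618 against 97.3 to 223 (2.92 ± 0.56), *H2-D1* at 691 to 2590 against 130 to 283 (2.72 ± 0.51), and *Nlrc5*, the transactivator of class I genes, at 26.9 to 83.7 against 1.78 to 7.69 (3.26 ± 0.51). These H2 genes belong to a polymorphic family, and the sharing of reads within it is uncertain. Of 11 MHC class II genes 8 were called higher, and 11 without m866. *H2-Aa* stood at 554, 540, 1700, 403 and 257 against 24.3 to 81.0 (3.51 ± 0.69), and *H2-Ab1* rose by 3.76 ± 0.71. *Ciita*, the master regulator of class II genes, stood at 18 to 87.2 against 1.33 to 4.73. The ligand of PD-1, *Cd274*, overlapped between the groups (31.3 to 131 in HRS legs, 3.60 and 3.76 in m867, 32.5 and 30.9 in m868) and was not called (adjusted p = 0.0770).

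T cell and NK cell genes were at low levels in PBS-only legs. Of 23 T cell genes 18 were called higher (22 without m866), with a median of 2.31. *Cd4*, the coreceptor of helper T cells that macrophages can also express, stood at 20.1, 17.1, 40.5, 19.6 and 4.05 against 0.243 to 1.09 (4.05 ± 0.74). *Cd8a* stood at 1.46 to 14.0 and *Cd3e*, a subunit of the T cell receptor complex, at 2.37 to 12.5 (3.00 ± 0.72 and 2.29 ± 0.54). PBS-only legs held *Cd8a* at 0 in 3 of 4 libraries and at 0.114 in the other. *Cd3d* stood at 1.68 to 10.7 against 0.0404 to 0.243. The costimulatory receptor gene *Cd28* lay at 4.20 to 7.04 against 3.40 to 12.3 and was not called. For NK cell and cytotoxic genes 12 of 13 were called higher, with *Ccl5* at 13.4 to 280 against 0.483 to 1.94 (4.79 ± 1.04) and the activating receptors *Ncr1* and *Klrb1c* at 2.31 ± 0.34 and 2.58 ± 0.28. Averaged over the T cell and the NK list, the HRS leg of m864 was highest (3.40 and 3.47 on the log2 scale) and that of m866 lowest (1.33 and 1.66), while PBS-only legs lay at -0.20 to -0.07 and -0.68 to -0.07.

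Of 15 B lineage genes 9 were called higher, and 13 without m866, and in 14 all HRS legs lay above all PBS-only legs. *Jchain*, which joins secreted immunoglobulin, stood at 42.2, 14.5, 20.1, 28.7 and 43.1 against 0.227 to 0.782 (4.73 ± 0.43). The B cell surface gene *Ms4a1* (0.529 to 5.61 against 0 to 0.243) did not overlap between the groups but did not pass the test (log2 fold change 1.64, adjusted p = 0.0903), nor did it without m866. *Ighg2c* differed most between HRS legs, at 500 in m862, 106 in m864 and 12.5 to 28.1 in the other legs, against 0.853 to 2.79. In m866 the B lineage average (3.04) lay inside the range of the other HRS legs (2.73 to 4.04).

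Genes that the study names for tissue-resident memory T cells were taken up here with results of these samples known, so their count is not independent evidence. Of 10 tested, 7 were called higher (8 without m866), with a median of 2.65. Among them *Cd69* and *Cxcr3* lost their calls in the fits without m862 and without m863, as given above. *Cd69*, a retention and early activation receptor, stood at 4.29, 2.21, 7.45, 1.87 and 1.68 in HRS legs, at 0.0568 and 0 in m867 and at 0 and 0.0652 in m868 (2.73 ± 0.51, adjusted p = 0.0196). *Cxcr6* stood at 1.53 to 12.4 against 0 to 0.202, and *Cxcr3*, the receptor for *Cxcl9* and *Cxcl10*, at 1.74 to 12.4 against 0.0568 to 0.728. The integrin gene *Itgal* rose by 4.46 ± 0.61, the adhesion receptor *Cd44* by 3.14 ± 0.45, and the transcription factor genes *Runx3* and *Prdm1* by 2.58 ± 0.42 and 1.96 ± 0.43. *Itgae*, which encodes CD103, stood at 0.717 to 1.63 against 0.121 to 0.485 and missed the fold threshold at 0.96 ± 0.25 (adjusted p = 0.0392), but was called without m866 (1.06). *Notch1* differed by 0.61 ± 0.20 (adjusted p = 0.0624) and overlapped. Most of these genes are shared with other leukocytes. Among 11 checkpoint genes 5 were called, including *Cd86* (2.40 ± 0.47), and 10 without m866. *Pdcd1*, which encodes PD-1, stood at 0.534 to 3.55 against 0 to 0.121 and passed without m866 (1.55, adjusted p = 0.0383) but not with it (1.44, adjusted p = 0.0805).

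Of 18 monocyte-derived and inflammatory macrophage genes 15 were called higher, with a median of 4.05. *Adgre1*, which encodes F4/80, stood at 158, 239, 330, 191 and 110 against 5.66 to 14.1 (4.45 ± 0.41), and *Cd68*, a lysosomal glycoprotein gene, at 65.3, 112, 123, 123 and 19.8 against 1.98 to 7.76 (3.85 ± 0.72). Summed over the list, HRS legs held 1220 to 6220 normalized counts and PBS-only legs 106 to 232. *Gpnmb*, a gene of lipid-laden macrophages, varied widely, at 95.8, 333, 137, 312 and 12.3 against 3.80 to 11.2. Genes of resident and alternatively activated macrophages did not move together. Of 13, 5 were called higher and 2 lower. *Mrc1*, the mannose receptor, stood at 40.4 to 119 against 15.7 to 32.1 (1.76 ± 0.41), while *Cd163*, the haemoglobin scavenger receptor, fell from 8.41 to 20.7 in PBS-only legs to 4.54 to 7.17 in HRS legs (-1.23 ± 0.20, adjusted p = 0.0160), and *Retnla* fell as given above.

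Dendritic cell genes rose in 7 of 10 cases, with *Flt3* at 2.23 ± 0.42 and the chemokine *Ccl22* at 2.45 ± 0.24. Neutrophil genes separated m866 from the other HRS legs. *S100a9*, a calprotectin subunit of neutrophils and monocytes, stood at 7.92, 23.4, 27.5 and 10.8 in m862 to m865 but at 0.374 in m866, beside 0.0568 to 0.261 in PBS-only legs. *S100a8*, its partner, stood at 4.72 to 21.7, at 0.343 and at 0.0284 to 0.326 in the same order. With m866 in the group 4 of 12 neutrophil genes were called higher, led by *Csf3r* (4.14 ± 0.64), and without it all 12 were.

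Innate effector genes were called in large shares. All 11 genes of Fc receptors, the phagocyte oxidase and cathepsin S were called higher, with a median of 3.92, and *Fcgr1* stood at 13.5 to 58.5 against 0.890 to 2.06 (4.07 ± 0.52). The inhibitory Fc receptor *Fcgr2b* rose by 3.26 ± 0.69. Of 15 complement genes 13 were called higher. *C1qa* and *C1qb*, subunits of the first component, stood at 96.5 to 490 and 111 to 578 against 12.3 to 25.0 and 9.34 to 29.4, and *Cfb*, of the alternative pathway, rose by 4.13 ± 0.70. Of 14 Toll-like receptors and adaptors 13 were called higher, among them *Tlr1* (4.36), *Tlr2* (3.74) and *Tlr13* (4.38). All 11 genes of pyroptosis and necroptosis were called higher, with a median of 2.92, including the inflammatory caspases *Casp1* (3.35 ± 0.52) and *Casp4* (2.92 ± 0.35) and the nucleic acid sensor *Zbp1* (4.01 ± 0.59). Of 24 chemokine genes 20 were called higher. *Ccl2*, which draws monocytes, stood at 12.4, 18.4, 35.9, 15 and 17.4 against 0.587 to 1.46 (3.80 ± 0.37), and *Ccl3* rose by 2.32 ± 0.48. Of 14 tested cytokine genes, from a list of 24, 9 were called higher (12 higher and 1 lower without m866), with *Il1b* at 2.65 to 31.1 against 0.130 to 0.728 (3.73 ± 0.77) and its antagonist *Il1rn* at 3.74 to 24.5 against 0.0853 to 0.485 (4.24 ± 0.69). The acute-phase gene *Hp*, haptoglobin, rose by 2.21 ± 0.37.

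Of 22 cell cycle genes 19 were called higher, with a median of 2.40. *Mki67*, a marker of cycling cells, stood at 19.2, 26.2, 41.7, 28.4 and 7.51 against 1.19 to 2.06 (3.50 ± 0.57), and *Top2a*, a topoisomerase of dividing cells, rose by 3.27 ± 0.54. Of 9 iron and heme genes 4 were called higher and 5 were not called, with a median of 0.57. *Hmox1*, which degrades heme, stood at 31.3 to 170 against 6.65 to 8.67 (3.44 ± 0.55), and *Slc11a1*, a metal transporter of phagosomes, rose by 3.63 ± 0.56.

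Of 6 tested endothelial activation genes 5 were called higher. *Icam1* stood at 43.6 to 149 against 4.29 to 9.71 (3.12 ± 0.47) and *Vcam1* at 23.4 to 94.4 against 4.77 to 7.11 (2.62 ± 0.48), both ligands of leukocyte integrins that other cells express too. The selectins *Sele* and *Selp* rose by 1.46 ± 0.29 and 1.6 ± 0.25. Of 14 identity genes, 13 were not called. *Cdh5*, VE-cadherin, stood at 97.7 to 124 against 94.0 to 116 (0.09 ± 0.14, and -0.046 after median-of-ratios scaling), and *Pecam1* at 99.0 to 120 against 82.1 to 93.2 (0.38 ± 0.13, adjusted p = 0.0737). The exception was the transcription factor *Sox18* (1.11 ± 0.21).

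**Figure D4:**
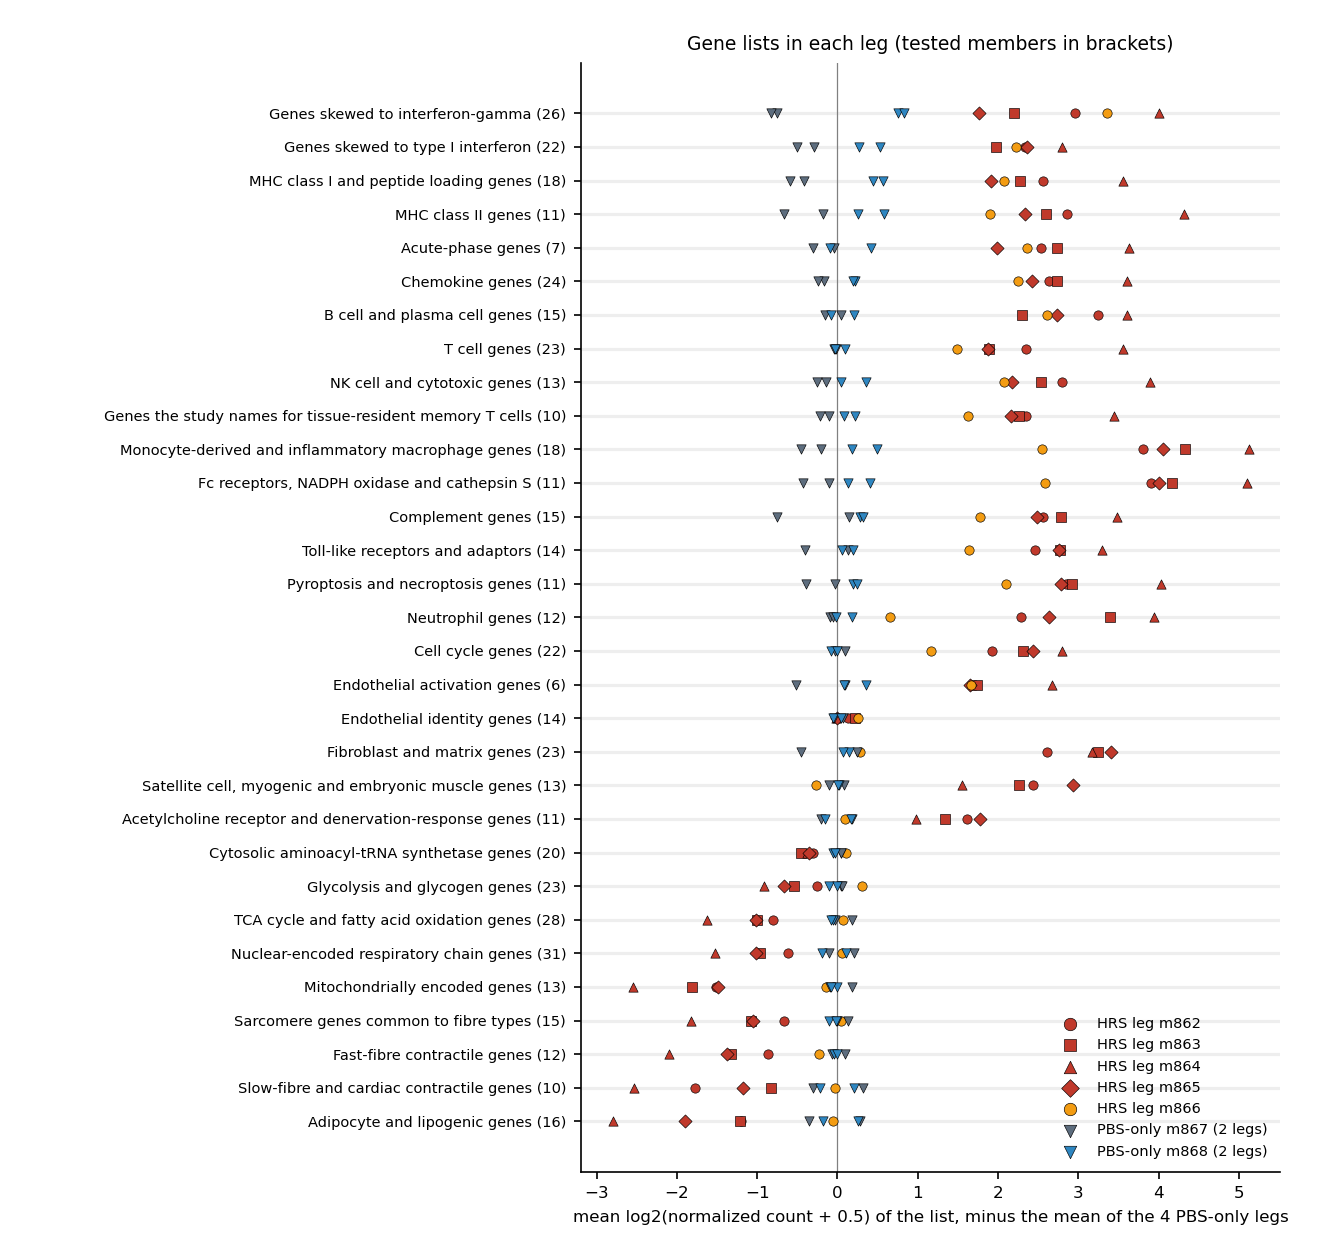
Mean log2(normalized count + 0.5) of the tested members of 31 gene lists in each leg, as the difference from the mean of the 4 PBS-only legs on the x axis. The HRS leg of m866 (orange circle) lies with the other HRS legs for interferon and MHC class I genes and with the PBS-only legs for matrix, regeneration, mitochondrial and contractile genes, and m868 lies above m867 for interferon genes.

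Most matrix genes were high in 4 HRS legs and near the PBS-only level in m866. *Col1a1*, the main chain of type I collagen (chr11:94936224-94953042), stood at 4570, 6390, 8590 and 8780 in m862 to m865, at 506 in m866 and at 410, 182, 470 and 459 in PBS-only legs. The groups did not overlap, yet with m866 included the log2 fold change was 3.51 ± 1.12 and not called (adjusted p = 0.0596), and without m866 it was 4.26 (adjusted p = 3.8e-04). The matricellular genes *Tnc* and *Postn* showed the same split. *Tnc* stood at 255, 431, 271 and 657 in those 4 legs and at 4.42 in m866, just under the PBS-only range of 4.43 to 10.7, and *Postn* at 980 to 2600, 40.9 and 25.6 to 57.1. Of 23 fibroblast and matrix genes 3 were called higher with m866, among them the metalloproteinase inhibitor *Timp1* (3.99 ± 0.82), and 22 without it. Over all genes 13.9% were called higher with m866 and 21.7% without it, so 3 of 23 was near the overall share. With m866 kept, all 23 were higher at an unadjusted p below 0.05. limma-voom called 20. *Pdgfra*, the receptor that marks fibro-adipogenic progenitors, overlapped between the groups at 38.8 to 107 against 27.3 to 44.9 and passed only without m866 (1.19). Averaged over the list, m866 lay at 5.88 beside 8.21 to 9.01 in the other HRS legs and 5.15 to 5.84 in PBS-only legs. *Ankrd1*, an ankyrin repeat gene of stretched and injured muscle, followed suit at 45.8, 47.7, 55.5, 55.0 and 2.52 against 0.847 to 3.88.

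Several genes of muscle regeneration, though not all, were high in the same 4 legs. *Myh3*, embryonic myosin, stood at 366, 350, 132 and 557 in m862 to m865, at 3.94 in m866 and at 6.83, 12.2, 18.9 and 10.8 in PBS-only legs. *Myh8*, perinatal myosin, stood at 307 to 832, at 17.0 and at 34.4 to 103 in the same order. For both genes m866 was the lowest of all 9 libraries. *Myl4*, an embryonic light chain, stood at 202, 188, 98.1, 257 and 15.5 against 5.85 to 9.10 and was the single member that limma called with m866 (3.84 ± 1.0, adjusted p = 0.0386), while limma-voom called 3 and 4 were higher at an unadjusted p below 0.05. The fusion gene *Mymk*, myomaker, stood at 16 to 59.1, at 0.623 and at 0.326 to 1.3, and *Myog*, myogenin, at 30.1 to 92.4, at 13.1 and at 12.4 to 16.1. *Pax7*, the satellite cell factor, did not separate the groups (3.48 to 6.64 against 3.59 to 4.93). Without m866, 8 of the 13 genes were called higher. The fetal acetylcholine receptor subunit *Chrng* stood at 6.98 to 26.6 in the 4 legs, at 0.156 in m866 and at 0.0652 to 0.243 in PBS-only legs, whereas the adult subunit *Chrne* overlapped (6.27 to 16 against 7.79 to 17.5). *Chrna1*, the subunit common to both receptors, stood at 56.0 to 115 in the 4 legs, 14.6 in m866 and 8.01 to 20.3 in PBS-only legs. *Runx1*, a transcription factor that denervated and injured muscle induces, was called with m866 (2.77 ± 0.70). It was the single limma call among 11 genes of the receptor and of denervation, of which limma-voom called 3, 6 were higher at an unadjusted p below 0.05 and limma called 6 without m866. *Sln*, sarcolipin, an inhibitor of the calcium pump, stood at 163, 131, 90.1, 186 and 5.92 against 1.28 to 5.34 (4.74 ± 1.24, adjusted p = 0.0387).

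**Figure D5:**
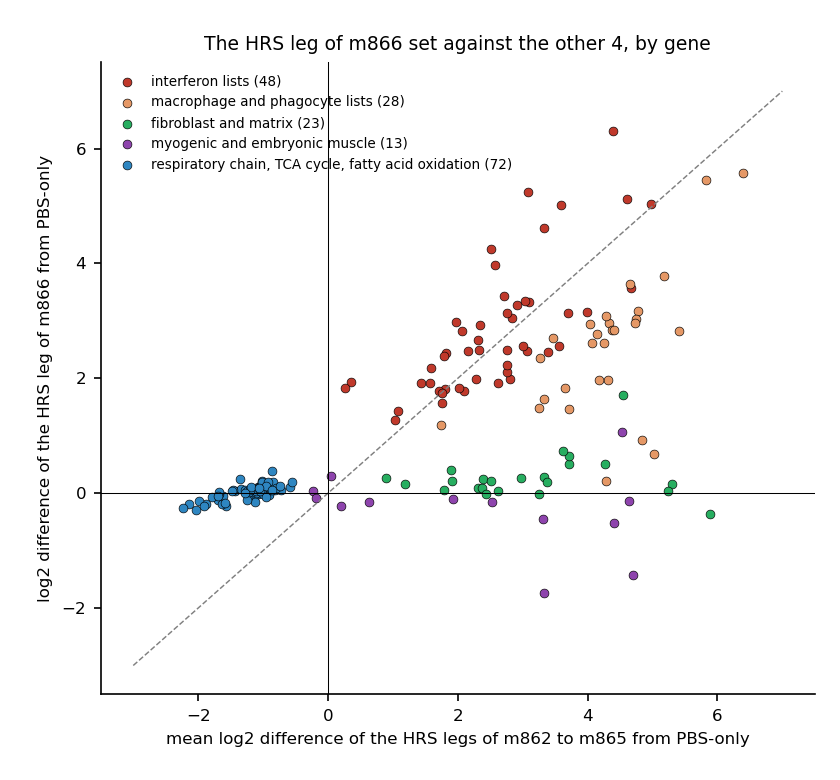
Log2 difference from the PBS-only legs in the HRS leg of m866 (y axis) against the mean of the other 4 HRS legs (x axis) for 5 sets of list members, with the dashed line marking equality. Interferon genes lie around the line, macrophage and phagocyte genes below it, matrix and mitochondrial metabolism genes mostly near 0 for m866, and several myogenic genes below 0.

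Over genes called higher without m866, the shift of m866 from PBS-only legs had a median of 40.8% of the mean shift of the other 4 HRS legs, and it was 7.53% over genes called lower. Those genes were selected by passing in the other 4 legs, which by itself lowers both figures, and by how much was not tested. By list, m866 reached 122.8% of the shift of the others for interferon-γ genes, 93.8% for type I interferon, 87.7% for B lineage and 86.6% for acute-phase genes. It reached 59.0% for macrophage genes, 49.6% for the cell cycle, 21.1% for neutrophil genes and 9.0% for matrix genes, and for the myogenic list it lay on the other side of the PBS-only mean (-12.0%). The HRS leg of m864 was at the other end, with the highest score of the 5 legs in 22 of 47 lists and the lowest in 14. The depth of m866 was 37300000 reads and that of m864 40700000, the lowest of the HRS libraries, and its part in these differences was not tested.

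Most contractile genes did not pass the test with all 5 legs, *Myh13* and *Myh6* (above) being the called falls of the fibre-type lists. *Myh4*, a fast myosin, stood at 32700, 21900, 12500 and 21200 in m862 to m865, at 58400 in m866 and at 51700 to 78000 in PBS-only legs (-1.38 ± 1.86). *Myh7*, the slow myosin, stood at 50.0, 270, 26.7, 107 and 765 against 541 to 965, and passed without m866 only (-3.26). *Acta1*, skeletal actin, stood at 10700 to 22700 in the 4 legs, 38500 in m866 and 32700 to 38300 in PBS-only legs. The number of called falls was 1 of 12 fast-fibre and 1 of 10 slow-fibre genes with m866, and 5 in each list without it. With m866 kept, limma-voom called 8 fast-fibre and 3 slow-fibre genes lower. Of 15 sarcomere genes limma called 0 with m866 (1 was lower at an unadjusted p below 0.05, and limma-voom called 4) and 7 without it. Of 14 dystrophin complex genes limma called 0 with m866 (3 were lower at an unadjusted p below 0.05, and limma-voom called 1) and 1 as lower without it, with medians of -0.53 and -0.62. Both counts of 1 were near the shares of falls over all genes, 7.63% for limma-voom and 9.24% without m866. In excitation-contraction coupling, *Ryr1*, the calcium release channel, stood at 599 to 1700 in the 4 legs and 2950 in m866 against 3220 to 4430, and *Cacna1s*, its voltage sensor, at 256 to 635 and 1130 against 1240 to 1730. For both genes all HRS legs lay below all PBS-only legs, with adjusted p of 0.0912 and 0.0705, and both were called lower without m866 (-1.83 and -1.81). Of the 11 genes of this list 1 was called higher (*Sln*) and 0 lower by limma with m866 (6 were lower at an unadjusted p below 0.05, and limma-voom called 6), and 6 were called lower without it. Of 13 atrophy genes 3 were called higher and 0 lower by limma (3 were lower at an unadjusted p below 0.05, and limma-voom called 3 lower), and 3 higher and 4 lower without m866. The ubiquitin ligase gene *Fbxo32* stood at 70.5 to 207 in the 4 legs and 600 in m866 against 567 to 750, and *Trim63*, another, at 72.6 to 132 and 428 against 262 to 360. Neither was called with m866, and both were called lower without it (-2.32 and -1.51). The metallothionein gene *Mt2* was called higher in all settings that kept both PBS-only mice, at 20.4 to 45.2 against 2.54 to 4.49 (3.04 ± 0.29).

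Energy metabolism genes followed the same division. *mt-Nd1*, a complex I subunit of the mitochondrial genome, stood at 4070, 3310, 2020 and 3960 in m862 to m865, at 10400 in m866 and at 11100 to 13700 in PBS-only legs (-1.55 ± 0.79, adjusted p = 0.153). *mt-Nd2* stood at 1450 to 3160, 9410 and 10100 to 11900. The counts called lower, by limma without m866, were 12 of 13 mitochondrially encoded genes, 18 of 31 nuclear respiratory chain genes and 21 of 28 genes of the TCA cycle and fatty acid oxidation. With m866 limma called 0 genes in each list, while 4, 5 and 7 were lower at an unadjusted p below 0.05 and limma-voom called 13, 2 and 4. Over all genes 7620 of 16414 were below that p in both directions together, and limma-voom called 7.63% lower. Its 2 of 31 nuclear genes were near that share. *Ndufs1* of complex I stood at 119 to 216 in the 4 legs, 416 in m866 and 380 to 443 in PBS-only legs, and *Cs*, citrate synthase, at 272 to 480, 836 and 728 to 922. How the mitochondrial share given above entered the deposited scaling is not known. Normalized counts summed to 726797 to 1162004 in HRS legs and 1042703 to 1201649 in PBS-only legs. An alternative divided each library by its total without mitochondrial genes, which also evened out these totals. Under it the median over all genes was 0.422, and the part of each change was not tested.

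In the HRS legs of m862 to m865 the muscle forms of the glycolytic enzymes named here lay below PBS-only legs and the other forms above. In m866 the muscle forms lay inside the PBS-only range. Most of these genes were chosen after their values were seen. *Hk2*, the hexokinase of muscle, stood at 101 to 156 in the 4 legs, 321 in m866 and 308 to 396 in PBS-only legs. *Hk1* and *Hk3*, of most tissues and of leukocytes, stood at 26.6 to 86.2 against 13.5 to 18.7 (1.72 ± 0.39) and at 21.3 to 140 against 0.995 to 2.55 (4.50 ± 0.64). The muscle phosphofructokinase *Pfkm* stood at 675 to 1680, 3810 and 3540 to 4050, whereas *Pfkp*, the platelet form, rose by 2.02 ± 0.35 in all 5 legs. The muscle enolase *Eno3* stood at 1720 to 3810, 6800 and 6470 to 7350, and *Eno1*, the ubiquitous form, at 80.0 to 148 against 51.5 to 58.3 (1.13 ± 0.25). Of 23 glycolysis and glycogen genes 4 were called higher and 0 lower with m866, and 4 higher and 12 lower without it. With m866 kept, 4 were lower at an unadjusted p below 0.05 and limma-voom called 8 lower. The share of rises was near that over all genes.

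Markers of other cell types in the dissected tissue were examined as lists, of which that of mast cells and eosinophils had 5 tested members of 11. Adipocyte genes fell in 1 of 16 cases with m866 (*Scd1*) and in 12 without it. With m866 kept, 6 were lower at an unadjusted p below 0.05 and limma-voom called 7. *Adipoq*, adiponectin, stood at 3.82 to 22.8 in the 4 legs, 36.7 in m866 and 26.4 to 63.9 in PBS-only legs, and *Plin1*, of the lipid droplet, at 3.98 to 26.3, 49.2 and 32.4 to 73.2. The summed level of the adipocyte list was 2190 to 6940 in HRS legs and 6840 to 8770 in PBS-only legs. Of 5 erythroid genes limma called 0 with m866 (4 were lower at an unadjusted p below 0.05, and limma-voom called 2) and 5 as lower without it, with *Hba-a1* at 31.2 to 50.5, 73.5 and 66.4 to 107. The part of blood in other results was not tested. Of 6 tendon genes 1 was called higher (*Thbs4*, 2.76 ± 0.73) and 5 without m866, and tendon sums were 94.7 to 611 against 31.7 to 141. The 1 of 6 was near the 13.9% of all genes called higher. Schwann cell, smooth muscle, keratinocyte and mast cell lists held 0 calls by limma with m866 (0, 5, 0 and 1 members had an unadjusted p below 0.05, and limma-voom called 0, 1, 0 and 1). Without m866, 2 smooth muscle genes were called lower, and 1 of 8 tested Schwann cell genes and 1 of 5 mast cell genes higher. Over all genes 21.7% were then called higher and 9.24% lower, so these rises did not exceed the overall share. In the order Schwann cell, smooth muscle, keratinocyte and mast cell, the list medians were -0.12, -0.29, 0.03 and -0.16. Those of Schwann and mast cells became 0.16 and 0.12 with scaling to totals without mitochondrial genes. Keratinocyte genes summed to 2.25 to 3.06 in HRS legs and 2.02 to 2.96 in PBS-only legs. *Acta1* and *Myh4* were high in all 9 libraries, which carry a muscle label.

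*Hars*, the mouse gene of the injected protein's kind, was not called. It stood at 36.7, 34.0, 35.2, 32.7 and 33.5 in HRS legs and at 34.1, 29.5, 33.5 and 27.9 in PBS-only legs (0.14 ± 0.11, adjusted p = 0.327, and -0.0145 after quantile normalization). Recombinant protein leaves no RNA, so this level does not test the injection. Of 20 aminoacyl-tRNA synthetase genes limma called 0, with or without m866, and limma-voom 0, while 3 were lower at an unadjusted p below 0.05 with m866 and 13 without it. Over all 16414 genes 7620 and 11000 were below that p, in both directions together. The median of the synthetase genes was -0.25 (0.06 with scaling to totals without mitochondrial genes). *Aars*, alanyl-tRNA synthetase, stood at 86.4 to 94.1 in the 4 legs, 130 in m866 and 106 to 130 in PBS-only legs. Of 13 endoplasmic reticulum stress genes 4 were called higher, led by *Sdf2l1*, a luminal chaperone complex member (1.94 ± 0.28), while the chaperone *Hspa5* stood at 316 to 470 against 219 to 245 and missed the threshold (0.68 ± 0.21, adjusted p = 0.0541).

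Of 11 immediate early genes 3 were called higher, 1 was called lower and 7 were not called. *Junb* stood at 48.7, 61.1, 105, 66.1 and 28.4 against 13.3 to 17.9 (1.88 ± 0.43). *Nr4a1*, an orphan nuclear receptor, stood at 39 to 66.3 in the 4 legs, 239 in m866 and 187 to 316 in PBS-only legs and was not called (adjusted p = 0.0740). *Nr4a2*, of the same family, stood at 2.16 to 4.14 in all 5 HRS legs against 7.24 to 9.12 (-1.28 ± 0.28, adjusted p = 0.0269). Against the contralateral legs *Nr4a2* lay on the other side, 0.60 higher in HRS legs, so its direction depended on which PBS legs served as the control.

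The 2 PBS-only mice differed from each other in interferon genes. Both legs of m868 lay more than 2-fold above both legs of m867 for 50 genes and below them for 12. Of those 50 genes, 26 belonged to the interferon and MHC lists, which have 76 tested members in all, and 15 to the interferon-γ list. *Gbp2* stood at 10.5 and 10.6 in m867 and at 58.0 and 49.7 in m868, and *Cd274* at 3.60 and 3.76 beside 32.5 and 30.9. With m868 alone as the control the median log2 fold change of the interferon-γ list was 2.21, and with m867 alone it was 3.56. The left and right legs of a mouse differed by a median of 0.182 (m867) and 0.278 (m868) on the log2 scale, and the mice by 0.170. A difference between 2 mice has no replicates and was not tested.

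The contralateral PBS legs and the HRS-MBP mice both share libraries with the comparison, so their values are set side by side only. Relative to PBS-only mice, contralateral PBS legs had medians of -0.11 for interferon-γ genes, 0.37 for type I interferon, 0.01 for T cell and 0.23 for macrophage genes. HRS legs exceeded those contralateral legs by 2.97, 1.95, 2.32 and 3.72 in the same lists. Between contralateral and PBS-only legs limma called 0 genes, with 643 at an unadjusted p below 0.05, which does not show that they were alike. HRS-MBP mice exceeded PBS-only mice by 3.71, 2.63, 3.55 and 4.57 in these lists and by 4.22 in B lineage genes, where HRS legs stood at 2.06. Between HRS-MBP mice and HRS legs 4 genes were called, all higher with HRS-MBP, namely the immunoglobulin variable segments *Ighv1-66*, *Ighv14-3* and *Igkv15-103* and the circadian gene *Dbp*. The HRS-MBP dose differed from that of HRS, and these 2 mice carry no side label.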

How the data were processed

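Polyadenylated RNA of mouse hamstring was sequenced by the authors with a directional kit on 3 instruments that are not assigned to libraries. The submitters' processing notes name STAR 2.7.8a, limma and mm39, yet gene positions in the deposited table follow GENCODE M21 on GRCm38 (98.9% of 25652 matched genes have the same start and end), and these are the positions given. The deposited values are normalized counts, a signal that is never negative; the scaling and the use of strand are not given in the sources used here. The lowest values of a library fell on whole steps of 1 read in 74.4% to 76.3% of cases (tolerance 0.02 steps), so no count test was the main test, and depth and the reads of the limma-voom alternative are implied.

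From these values log2(value + 0.5) was computed for 16414 of 26382 genes, those whose average over the 16 libraries reached 0.5. limma 3.58.1 in R 4.3.3 (lmFit, eBayes with a mean trend) compared 5 HRS legs with 2 PBS-only mice. Adjusted p is Benjamini-Hochberg over all tested genes. Errors are the standard errors of limma. Mice are separate animals, and p-values measure the spread between them. The code was checked on simulated data.

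The comparison and its 47 gene lists were chosen with earlier results of these data known. Genes named are the 12 largest rises and falls that did not overlap between groups (without predicted genes and variable segments), the first 2 members and the largest change of each list, genes the study names, genes of calls numbering 5 or fewer, and the 5 called genes that varied most over HRS legs. Others were chosen after their values were seen, among them *Cxcl10*, *Ciita*, *Ido1*, *Cd8a*, *Cd28*, *Jchain*, *Sele*, *Selp*, *Tnc*, *Postn*, *Myh3*, *Myh8*, *Mymk*, *Myog*, *Chrng*, *Chrne*, the isoenzymes and the genes with printed promoters other than *Isg15*. The alternatives covered pseudocount, filter, scaling, variance model, treatment of legs and each mouse left out. Some genes that this rule names are not reported here.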

Additional observations from a re-analysis of the deposited data

Results flagged for a closer look

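Of 98 sets of library values examined (47 list averages, the mitochondrial share and depth in both groups), 6 held a library far from the others, where chance flags about 1 group in 20. Among HRS legs, m866 lay apart in matrix genes (5.88 on the log2 scale, nearest leg 8.21) and in tRNA synthetase genes (6.15, nearest 5.73), and m864 in endothelial activation genes (4.95, nearest 4.01). Among PBS-only legs, the left leg of m867 lay apart in resident macrophage genes (2.86, nearest 3.54) and complement genes (3.74, nearest 4.63), and the left leg of m868 in T cell genes (-0.07, nearest -0.18).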

How the results depend on the processing

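Counts of calls moved with most choices. Over the 26 alternatives 0 genes called as rises were called as falls, and 0 falls as rises. The 2 fits that left a single PBS-only mouse cannot show such a reversal, because it needs calls in both fits. Signs of fold changes were compared only for the 155 genes examined one by one. Rises numbered 2279, but 1392 with a pseudocount of 2, 1467 with a filter at a mean of 5, 1512 with median-of-ratios scaling, 1001 with quantile normalization and 1245 with scaling to totals without mitochondrial genes. Falls made up 1.23% of tested genes, but 0.487%, 0.462%, 3.2% and 0.403% with that pseudocount, filter, quantile normalization and scaling to totals without mitochondrial genes. They made up 5.83% with 9 libraries as separate samples, 5.26% with mouse as a correlated block, 5.25% with all 4 groups in the fit, 7.63% with limma-voom on implied reads (legs as separate libraries) and 1.99% with left legs only. Leaving out 1 mouse or leg at a time gave 0 to 3557 rises and 0% to 9.24% falls, with 0 when either PBS-only mouse was left out, where the lone mouse was taken to vary like the HRS mice. The median over all genes of 0.147 became 0.023 with median-of-ratios scaling, -0.163 with quantile normalization and 0.422 with scaling to totals without mitochondrial genes. Between contralateral and PBS-only legs 0 genes were called in each alternative. Between HRS-MBP and HRS legs 0 to 39 were higher and 0 to 2 lower as single mice were left out. No paired analysis was possible because HRS legs and PBS-only legs come from different mice.

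Genes that were not called changed sign as follows, and the cause was not tested. *Pax7* became -0.0119 with median-of-ratios scaling, -0.405 with quantile normalization, -0.00436 without m865 and -0.024 without m868. *Cdh5* became -0.0457 with median-of-ratios scaling. *Chrne* became 0.0505 with scaling to totals without mitochondrial genes, 0.259 with right PBS-only legs and 0.0437 without the left leg of m867. Quantile normalization turned *Acta1* to 0.201, *Hars* to -0.0145 and *Ighv1-66* to -0.110, and leaving out m867 turned *Ido1* to -0.139. Over the fits that leave out a mouse or leg, *Ido1* ran from -0.139 to 1.49, *Pax7* from -0.024 to 0.249 and *Chrne* from -0.518 to 0.0437. Floors of 3 reads ran from 0.0324 in the HRS leg of m863 to 0.364 in the right leg of m868, so low genes in PBS-only legs are counted less finely.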
